A study of Mus musculus with 16 samples.

Results

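Arid1a, Baz2b, Dot1l, Hdac5, Bahcc1, Prdm6, Zbtb7a and Top2b are autosomal genes for chromatin regulators, 8 of the 22367 protein-coding genes of the mouse annotation used here. They were chosen by the presence of a region: earlier readings of the lists had found, near each of them, a region in the list of only 1 sex, so the presence of such regions is a description of the choice. Each gene was described by the regions over its body or within 50 kb of its 5′ end, the start of its gene model, and this stretch is called its window. The windows add up to 1.175 Mb and do not overlap each other. The study places Baz2b and Top2b among chromatin regulators with higher expression in XX ES cells and the other members among those with higher expression in XY ES cells.

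Chromatin immunoprecipitation and sequencing (ChIP-seq) located DNA carrying acetylated lysine 27 (H3K27Ac), trimethylated lysine 27 (H3K27Me3) or monomethylated lysine 4 (H3K4Me1) of histone H3 in ES cells of female (XX) and male (XY) mouse embryos. The 16 libraries cover 2 XX and 2 XY lines for each mark, with 1 IgG and 1 input library of each sex. All lines derive from hybrids of C57BL/6 and CAST/EiJ mice, were untreated, were kept in serum and LIF on inactivated feeder fibroblasts, and are given as passage 7 to 10 by the labels. The feeders came from pooled embryos of both sexes and were depleted before harvest, and the strain labels carry a generation number that differs from sample to sample. Neither sex has more than these 2 lines, and 1 list of regions was deposited for each sex and mark, with no list for a single line, so no spread between replicates and no test can be given for any value below. A region is called XX-only or XY-only where no region of the same mark in the list of the other sex overlaps it by at least 1 bp, and shared otherwise.

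H3K27Ac lies at active promoters and enhancers, and H3K4Me1 at enhancers whether active or primed. H3K27Me3 is written by Polycomb repressive complex 2 and lies at repressed or poised genes, which in ES cells often carry broad domains of it around CpG-rich starts. Of the members, Arid1a encodes a DNA-binding subunit of the BAF (SWI/SNF) nucleosome remodeller, Baz2b a bromodomain protein related to ISWI remodelling complexes, and Top2b the DNA topoisomerase that relieves torsion in non-dividing cells. Dot1l encodes the H3K79 methyltransferase and Hdac5 a class IIa histone deacetylase. Zbtb7a encodes a zinc finger repressor, Prdm6 a PR domain protein known from smooth muscle, and Bahcc1 a large protein with a BAH domain.

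The bases under these regions are shown for 4 members, to set the middle of a list-only region beside the bases upstream of a member's start. The Top2b stretch from its XY-only region lies under the H3K27Ac region that covers the Top2b start in both lists, and the others lie away from a start. Each stretch holds 200 bases of NCBIM37, the assembly named mm9 in the labels, and CpG dinucleotides are in capitals. The stretches from regions are the middle of a region in 1 list only, and those upstream end at the base before the 5′ end.
Arid1a, middle of the XX-only H3K27Ac region, chr4:133297001-133297200, plus strand: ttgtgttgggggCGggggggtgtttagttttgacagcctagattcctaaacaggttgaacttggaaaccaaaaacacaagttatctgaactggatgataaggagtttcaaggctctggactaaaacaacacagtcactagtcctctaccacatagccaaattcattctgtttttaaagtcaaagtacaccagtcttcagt
Arid1a, middle of the XY-only H3K27Ac region, chr4:133302201-133302400, plus strand: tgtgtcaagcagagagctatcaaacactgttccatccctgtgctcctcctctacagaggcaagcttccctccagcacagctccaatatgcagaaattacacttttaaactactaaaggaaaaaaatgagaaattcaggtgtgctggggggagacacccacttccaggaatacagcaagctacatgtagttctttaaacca
Baz2b, middle of the XX-only H3K27Ac region, chr2:59974001-59974200, plus strand: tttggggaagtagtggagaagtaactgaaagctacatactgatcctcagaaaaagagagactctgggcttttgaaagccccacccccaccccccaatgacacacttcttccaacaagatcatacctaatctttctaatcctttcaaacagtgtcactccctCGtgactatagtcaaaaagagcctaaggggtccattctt
Bahcc1, middle of the widest XX-only H3K27Me3 region of its window, chr11:120076601-120076800, plus strand: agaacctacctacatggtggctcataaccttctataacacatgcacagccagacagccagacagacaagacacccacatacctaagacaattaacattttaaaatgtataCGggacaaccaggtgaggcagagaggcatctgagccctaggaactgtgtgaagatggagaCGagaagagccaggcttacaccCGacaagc
Bahcc1, upstream of the 5′ end, chr11:120094061-120094260, plus strand: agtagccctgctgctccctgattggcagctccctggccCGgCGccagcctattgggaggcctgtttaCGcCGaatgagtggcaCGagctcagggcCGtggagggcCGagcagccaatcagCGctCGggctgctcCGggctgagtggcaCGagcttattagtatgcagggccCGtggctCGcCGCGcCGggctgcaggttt
Top2b, middle of the XY-only H3K4Me1 region, chr14:17196201-17196400, plus strand: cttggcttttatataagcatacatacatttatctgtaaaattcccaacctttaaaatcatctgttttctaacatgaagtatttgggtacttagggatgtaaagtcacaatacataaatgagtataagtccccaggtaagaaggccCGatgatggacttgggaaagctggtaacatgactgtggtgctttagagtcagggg
Top2b, upstream of the 5′ end, chr14:17197493-17197692, plus strand: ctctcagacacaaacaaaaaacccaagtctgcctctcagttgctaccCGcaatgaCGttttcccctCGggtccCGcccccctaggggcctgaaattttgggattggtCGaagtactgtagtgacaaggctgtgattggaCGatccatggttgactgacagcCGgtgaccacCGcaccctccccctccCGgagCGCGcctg
The Bahcc1 start held 16 CpG and that of Top2b 11 CpG in these 200 bases, against 3 CpG or fewer in each of the 5 stretches from a region in 1 list only. The stretch of Top2b from its XY-only H3K4Me1 region comes from farther upstream on the same side of the gene and held 1 CpG. A stretch of 200 bases need not stand for its region, and CpG per kb over whole regions is given further on.

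Across the series, the lists held from 15138 to 39404 regions, and the XX list was the longer for each mark. Between 10.4% and 39.8% of a list had no overlap in the list of the other sex. In both lists H3K27Ac was found within 2 kb of 7 of 8 ES cell marker starts. The same held for 1 of 8 fibroblast markers in the XX list and 2 of 8 in the XY list, and the part of feeder cells in the results was not tested. Of 4 Y-linked genes, Uty had 1 H3K27Ac and 1 H3K4Me1 region in the XY lists and none in the XX lists, and Ddx3y, Kdm5d and Eif2s3y had none in any list. The X-linked Xist did not separate the sexes, with 1 H3K27Ac and 2 H3K4Me1 regions in the lists of each sex. The number of reads behind a region is unknown, so a region missing from a list may be absent or below the threshold of the caller, which cannot be told apart here.

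The 8 windows held 213 regions in the 6 lists, of which 186 were shared and 27 were in 1 list only. Of the 27, 19 were XX-only and 8 were XY-only. The whole lists leaned the same way, with 5491 XX-only and 2725 XY-only regions for H3K27Ac. They held 7384 and 3577 for H3K27Me3, and 8584 and 4563 for H3K4Me1. Arid1a had 7 of them, Baz2b 5, Hdac5, Bahcc1 and Prdm6 3 each, and Dot1l, Zbtb7a and Top2b 2 each. Baz2b, Dot1l, Bahcc1 and Zbtb7a had XX-only regions and no XY-only region, Prdm6 and Top2b had XY-only regions and no XX-only region, and Arid1a and Hdac5 had both kinds.

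In these 50 kb windows, the counts of members were near or below those of other genes, and counts in a narrower window are given at the end. XX-only H3K27Ac regions lay in the windows of 3 members (Arid1a, Baz2b and Dot1l), or 37.5%, where 30.5% of 21418 autosomal protein-coding genes had one. XY-only H3K27Ac regions lay near 2 members (Arid1a and Top2b), where 19.5% of genes had one. XX-only H3K27Me3 regions lay near 4 members (Arid1a, Hdac5, Bahcc1 and Zbtb7a), against 42.6% of genes, and XY-only ones near 2 members (Arid1a and Prdm6), against 22.4%. For H3K4Me1, 2 members had an XX-only region (Arid1a and Baz2b; background 46.7%) and 2 had an XY-only region (Hdac5 and Top2b; background 25.2%). A region of any mark in 1 list only lay in the windows of 80.9% of autosomal protein-coding genes, so having one is common. Windows grow with the gene, and 5 of the members are of 50 kb or more. Of genes of that length, 54.2% had an XX-only H3K4Me1 region, against 44.6% of shorter ones, and 37.3% an XY-only one, against 21.9%. For H3K27Ac the shares were 37.2% and 28.7% (XX-only), and 23.2% and 18.4% (XY-only). For H3K27Me3 they were 42.1% and 42.7% (XX-only), and 26.2% and 21.3% (XY-only).

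None of the 27 regions lay over the 5′ end of a member. They overlapped the member's own gene body in 14 cases and lay upstream of it in the other 13, some of these in the neighbouring genes Ap3d1, Asb16 and Creb3l3. Of the 27, 1, in the Hdac5 window, covered the start of a coding gene, Asb16. A coding gene start was covered by 73 of the 186 shared regions, which were wider and are counted once in each list. The matching shares over all autosomes were not counted, so this difference is not shown to be particular to the members. The list-only regions were narrow, from 1.199 to 9.40 kb with a median of 3.00 kb, and 20 of 27 were narrower than the median of their own list, compared with 48 of 186 shared regions. For H3K27Ac, the median width was 3.40 kb for the 4 XX-only regions and 6.00 kb for the 35 shared regions of the XX list, and over all autosomes the same medians were 2.60 and 3.999 kb. For H3K4Me1, the 7 XX-only regions had a median of 3.00 kb and the 42 shared ones 12.1 kb, against 3.20 and 5.60 kb over all autosomes. Shared H3K4Me1 regions in the XY list reached 57.4 kb, in the Zbtb7a window.

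**Figure D1:**
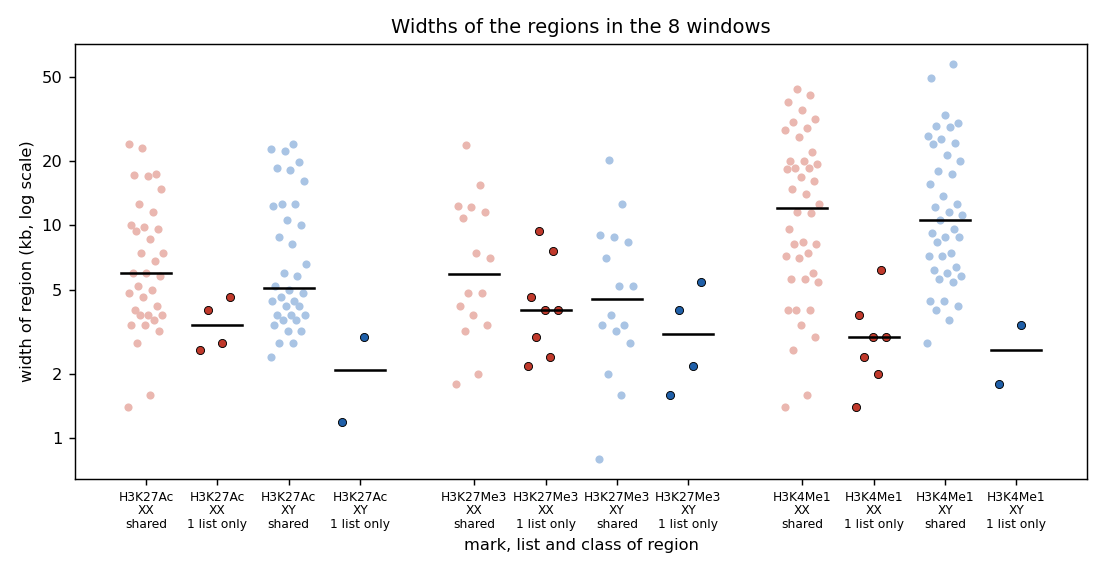
Width in kb (log scale) of every region in the 8 windows, by mark, list and class; each point is 1 region and bars are medians. The 27 regions in 1 list only lie between 1.199 and 9.40 kb, while shared regions reach 57.4 kb.

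The gap between a list-only region and the nearest region of the other list was at most 1 kb for 2 of the 27 and over 10 kb for 10. At the edge of the definition, the XX-only H3K4Me1 region of Baz2b at chr2:59925801-59929599 stood 1 bp from an XY region, and a shared XX H3K27Me3 region of Bahcc1, chr11:120068001-120071399, had 399 bp of overlap, 11.7% of its width. At the edge of the window, the XX-only H3K27Me3 region of Arid1a ended 49.3 kb upstream, just inside. The nearest list-only regions just outside a window were an XX-only H3K27Me3 region 3.06 kb beyond that of Bahcc1, an XX-only H3K27Ac region 5.29 kb beyond that of Top2b and an XY-only H3K4Me1 region 6.50 kb beyond that of Baz2b.

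The starts of the members were marked alike in the XX and XY lists. H3K27Ac covered the 5′ end of 7 members in both lists, all but Prdm6, and the same 7 were the members with it within 2 kb. By that looser measure, 48.9% of genes had the mark at the start in the XX list and 49.1% in the XY list. H3K27Me3 was within 2 kb of 5 member starts in both lists (Arid1a, Hdac5, Bahcc1, Prdm6 and Zbtb7a), where 31.7% of genes had it in the XX list and 27.9% in the XY list. H3K4Me1 lay within 2 kb of 7 members in the XX list and of all 8 in the XY list, where the backgrounds were 59.7% and 59%. The member that differed was Top2b. A start with H3K4Me1 within 2 kb in the XY list only was found at 4.58% of genes, and no member had the reverse, found at 5.28%. For H3K27Ac, 2.65% of genes had a marked start in the XX list only and 2.82% in the XY list only, and for H3K27Me3 7.07% and 3.24%, and no member was among them.

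The bases covered differed most for H3K27Me3. In the summed windows, H3K27Me3 covered 164.9 kb in the XX list and 110.3 kb in the XY list, a ratio of 1.49, where the whole lists gave 1.25. H3K27Ac covered 261.7 and 279.6 kb, a ratio of 0.936 against 1.07 for the whole lists. H3K4Me1 covered 536.5 and 533 kb, a ratio of 1.01 against 1.04. Bahcc1 and Zbtb7a were the members with at least 2-fold more H3K27Me3 bases in the XX list, 2 of the 6 members with any H3K27Me3, and 27.5% of genes with any H3K27Me3 in their window passed that fold. No member passed the same fold in the XY direction for H3K27Me3 (9.16% of genes), in either direction for H3K27Ac (7.86% XX, 5.57% XY) or in either direction for H3K4Me1 (6.33% XX, 6.22% XY).

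**Figure D2:**
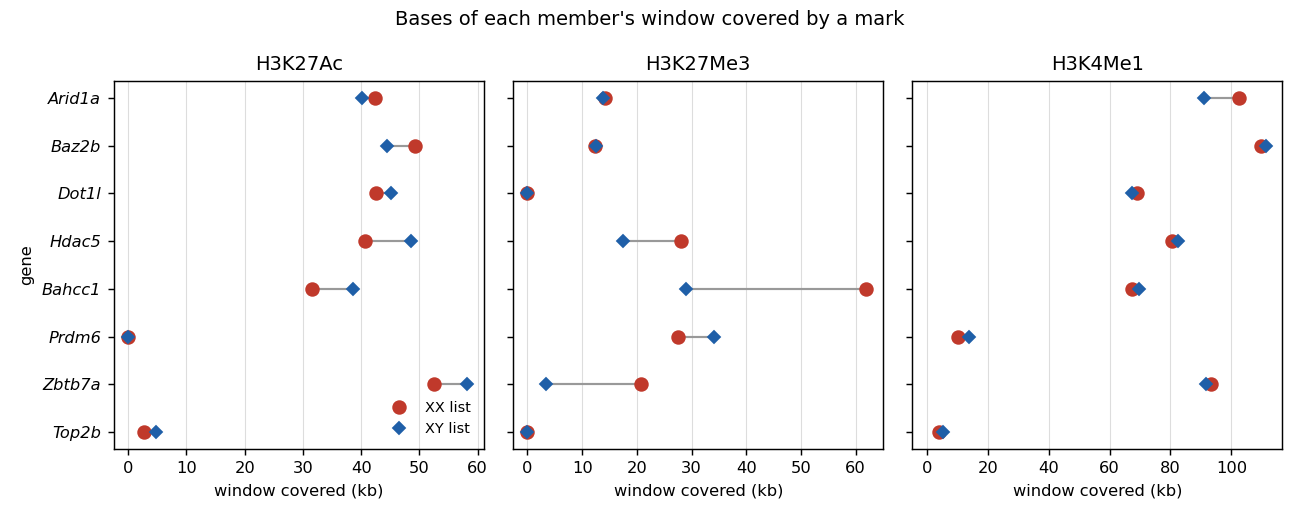
Bases of each member's window covered by each mark, in kb, in the XX list (circles) and the XY list (diamonds); each symbol is the value of 1 list. H3K27Me3 in the Bahcc1 window covered 61.93 kb in the XX list and 28.93 kb in the XY list, while for H3K4Me1 the ratio of the XX to the XY value lies between 0.729 and 1.13 for all 8 genes.

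Arid1a, on the minus strand at chr4:133234923-133312684, had the most list-only regions and had them in both directions. Its start lay under a shared H3K27Ac region of 11.6 kb in the XX list and 12.4 kb in the XY list. Inside the gene, an XX-only H3K27Ac region of 2.80 kb (chr4:133295801-133298599) and an XY-only one of 3.00 kb (chr4:133300801-133303799) stood next to each other. They lay 14.1 to 16.9 kb and 8.89 to 11.9 kb from the start, within the same intron. The middle 200 bases of each are printed above, with 1 and 0 CpG. Both lay wholly under H3K4Me1 in both lists. The XY-only region stood 0.601 kb from an XX H3K27Ac region, and the XX-only one 2.20 kb from the nearest XY H3K27Ac region. In each list both stretches lay within a single H3K4Me1 region.

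H3K27Me3 upstream of Arid1a showed a similar alternation. A 2.40 kb XX-only region lay 46.9 to 49.3 kb upstream and a 1.60 kb XY-only region 40.3 to 41.9 kb upstream. Nearer the gene, H3K27Me3 came to 1.32 kb from the 5′ end in the XX list and 0.516 kb in the XY list, without covering it in either. The H3K4Me1 differences were in 1 direction, with XX-only regions of 6.20, 1.999 and 3.00 kb whose near edges lay 7.52, 29.9 and 36.5 kb upstream. All 7 list-only regions together span 21.0 kb, and the bases covered in the window were close for H3K27Ac (42.4 kb XX, 40.2 kb XY) and H3K27Me3 (14.2 and 13.8 kb), and 102.5 and 90.9 kb for H3K4Me1.

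Baz2b, at chr2:59737420-60047896 on the minus strand, is the longest member at 310.5 kb. Its 5 list-only regions were all XX-only and all inside the gene. H3K27Ac covered its start in both lists, with regions of 9.40 kb (XX) and 8.80 kb (XY). Its XX-only H3K27Ac region, 2.60 kb at chr2:59972801-59975399, lay in an intron 72.5 kb from the start, inside the only H3K27Me3 domain of the window, and its middle is printed above. That domain was 12.4 kb in the XX list and 12.6 kb in the XY list, with 98.4% of its covered bases in both, the closest match of any member for this mark. H3K27Ac lay over 30.6% of the H3K27Me3 bases of the Baz2b window in the XX list and 3.17% in the XY list, and 10.1% and 10.2% over all autosomes.

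The XX-only H3K4Me1 regions of Baz2b were 2.40, 3.80, 3.00 and 1.399 kb wide, at 7.90, 118.3, 229.1 and 266.9 kb into the gene. Those nearest the start stood 1.001 kb and 1 bp from an XY region, and the distal ones 29.8 and 51.0 kb. The 1.399 kb region was among the narrowest of its list, where 1.36% of regions were narrower. The total H3K4Me1 over the window was 109.6 kb in the XX list and 111.4 kb in the XY list, since a shared region was wider in the XY list: at chr2:59870201-59894599 the XY region began 13.8 kb before its XX partner, the largest edge difference among the members.

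Top2b, at chr14:17197693-17263301 on the plus strand, carried little of any mark in its window. A shared H3K27Ac region of 2.80 kb in the XX list and 3.20 kb in the XY list covered the 5′ end, with the same upstream edge in both. No H3K27Me3 lay in its window, and the nearest was 207 kb away. Its list-only regions were both XY-only and both upstream: 1.80 kb of H3K4Me1 at chr14:17195401-17197199, ending 494 bp before the start, and 1.199 kb of H3K27Ac at chr14:17175001-17176199, 21.5 to 22.7 kb upstream. The nearest XX H3K4Me1 region to the start was 34.1 kb away. H3K27Ac lay over 55.5% of the H3K4Me1 region in both lists. These were narrow regions, with 1.52% of the XY H3K4Me1 list and 4.61% of the XY H3K27Ac list narrower.

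Dot1l, at chr10:80217951-80258206 on the plus strand, had a broad H3K27Ac region over its start, 17.0 kb in the XX list and 18.6 kb in the XY list, and no H3K27Me3 in its window. The nearest H3K27Me3 regions lay just beyond the window, beginning 50.85 kb (XX) and 51.05 kb (XY) downstream of the start. The 2 list-only regions of Dot1l were XX-only H3K27Ac. The first, 4.60 kb at chr10:80245201-80249799 within the gene, 27.3 to 31.9 kb from the start, ended 1.001 kb short of an XY region of 24.2 kb that reached past the end of the gene. 2 XX regions faced this XY region and overlapped 60.3% of it. The second, 3.999 kb at chr10:80196801-80200799, lay in Ap3d1, whose start was the nearest, 4157 bp away. Because the XY regions were wider, the total H3K27Ac over the window was 42.6 kb in the XX list and 45.2 kb in the XY list.

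**Figure D3:**
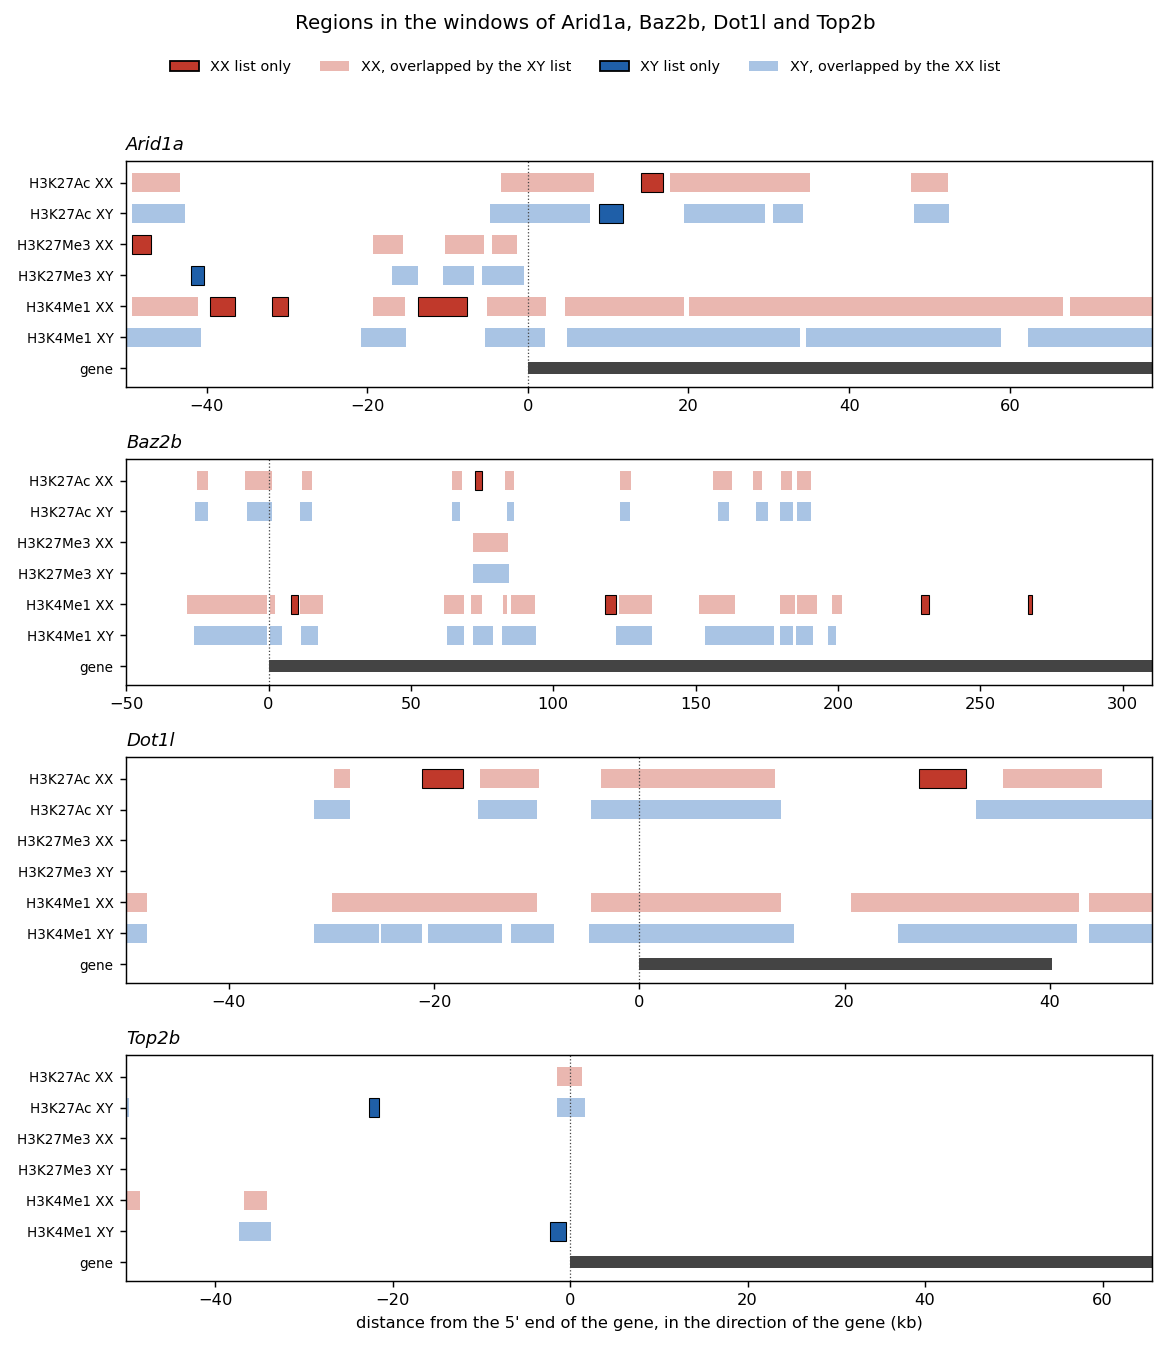
Regions of the 3 marks in the XX and XY lists over the windows of Arid1a, Baz2b, Dot1l and Top2b, by distance from the 5′ end in kb (positive into the gene); dark outlined bars are regions in 1 list only, pale bars are shared, and the grey bar is the gene. No dark bar lies over a 5′ end, and the dark H3K27Ac bars of Arid1a stand side by side in the same intron. The distance scale differs between genes.

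Hdac5, at chr11:102055746-102091480 on the minus strand, carried H3K27Ac over its start (12.6 kb XX, 16.2 kb XY) together with H3K27Me3 on either side of it. H3K27Me3 came to 80 bp from the 5′ end in the XX list, on the gene side, and to 120 bp in the XY list, on the upstream side. Its XX-only H3K27Me3 regions were 2.20 kb at chr11:102084001-102086199, 5.28 to 7.48 kb into the gene and wholly under H3K27Ac in both lists, and 9.40 kb at chr11:102129601-102138999, the widest list-only region of any member. The latter covered the start of Asb16 and stood 20.6 kb from any XY H3K27Me3 region, and Asb16 had H3K27Ac within 2 kb of its start in both lists. Its XY-only region was 3.40 kb of H3K4Me1, 6.72 to 10.1 kb upstream, with H3K27Me3 of both lists over 64.7% of it. H3K27Me3 covered 28 kb of the window in the XX list and 17.4 kb in the XY list.

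Bahcc1, at chr11:120094261-120153610 on the plus strand, carried all 3 marks over its start in both lists. H3K27Me3 began 60 bp before the 5′ end in both lists and extended 15.3 kb into the gene in the XX list and 8.34 kb in the XY list, where a second region of 1.999 kb lay further in. Upstream, the XX list held 6 H3K27Me3 regions and the XY list 3. Of these, XX-only regions of 3.00 kb (chr11:120056401-120059399) and 7.60 kb (chr11:120073001-120080599) stood between shared ones, and another of the same kind, 3.999 kb at chr11:120148801-120152799, lay 54.5 to 58.5 kb into the gene. Neither upstream region carried H3K27Ac or H3K4Me1 in any list. H3K27Me3 covered 61.93 kb (56.6%) of the window in the XX list and 28.93 kb (26.5%) in the XY list, a ratio of 2.14, with 43% of the covered bases in both. H3K27Ac went the other way, 31.5 kb in the XX list and 38.5 kb in the XY list, and overlapped 35.7% of the H3K27Me3 bases in the XX list and 72.4% in the XY list.

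Zbtb7a, at chr10:80597965-80615740 on the plus strand, is the shortest member and showed the largest ratio. Its start lay under H3K27Me3 and H3K27Ac in both lists. The H3K27Me3 region over the start was 12.2 kb in the XX list and 3.40 kb in the XY list, with edges 6.6 kb apart on the upstream side and 2.2 kb apart inside the gene. All 6 annotated starts of the gene lay under the XX region and 1 under the XY region. XX-only H3K27Me3 regions of 3.999 kb (chr10:80614001-80617999), over the end of the gene and of Pias4, and of 4.60 kb (chr10:80552201-80556799), in Creb3l3, stood 15.2 and 19.6 kb from any XY H3K27Me3 region. The first lay wholly under H3K27Ac and H3K4Me1 in both lists. H3K27Me3 covered 20.8 kb in the XX list and 3.40 kb in the XY list, a ratio of 6.12. H3K27Ac covered 52.6 and 58.2 kb.

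Prdm6, at chr18:53624200-53735561 on the plus strand, was the only member without H3K27Ac at its start, and the nearest H3K27Ac region was 196 kb away in the XX list and 197 kb in the XY list. H3K27Me3 covered the start in both lists, over 23.8 kb in the XX list and 20.2 kb in the XY list, the widest start domain of the members, with H3K4Me1 of 5.60 and 9.60 kb within it. Its 3 list-only regions were XY-only H3K27Me3 within introns, of 5.40, 2.20 and 3.999 kb, at 38.0, 51.0 and 90.8 kb into the gene. Each stood more than 10 kb from any XX H3K27Me3 region and carried no other mark in any list. H3K27Me3 covered 27.6 kb of the window in the XX list and 34.2 kb in the XY list, a ratio of 0.807, the lowest of the members with this mark.

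**Figure D4:**
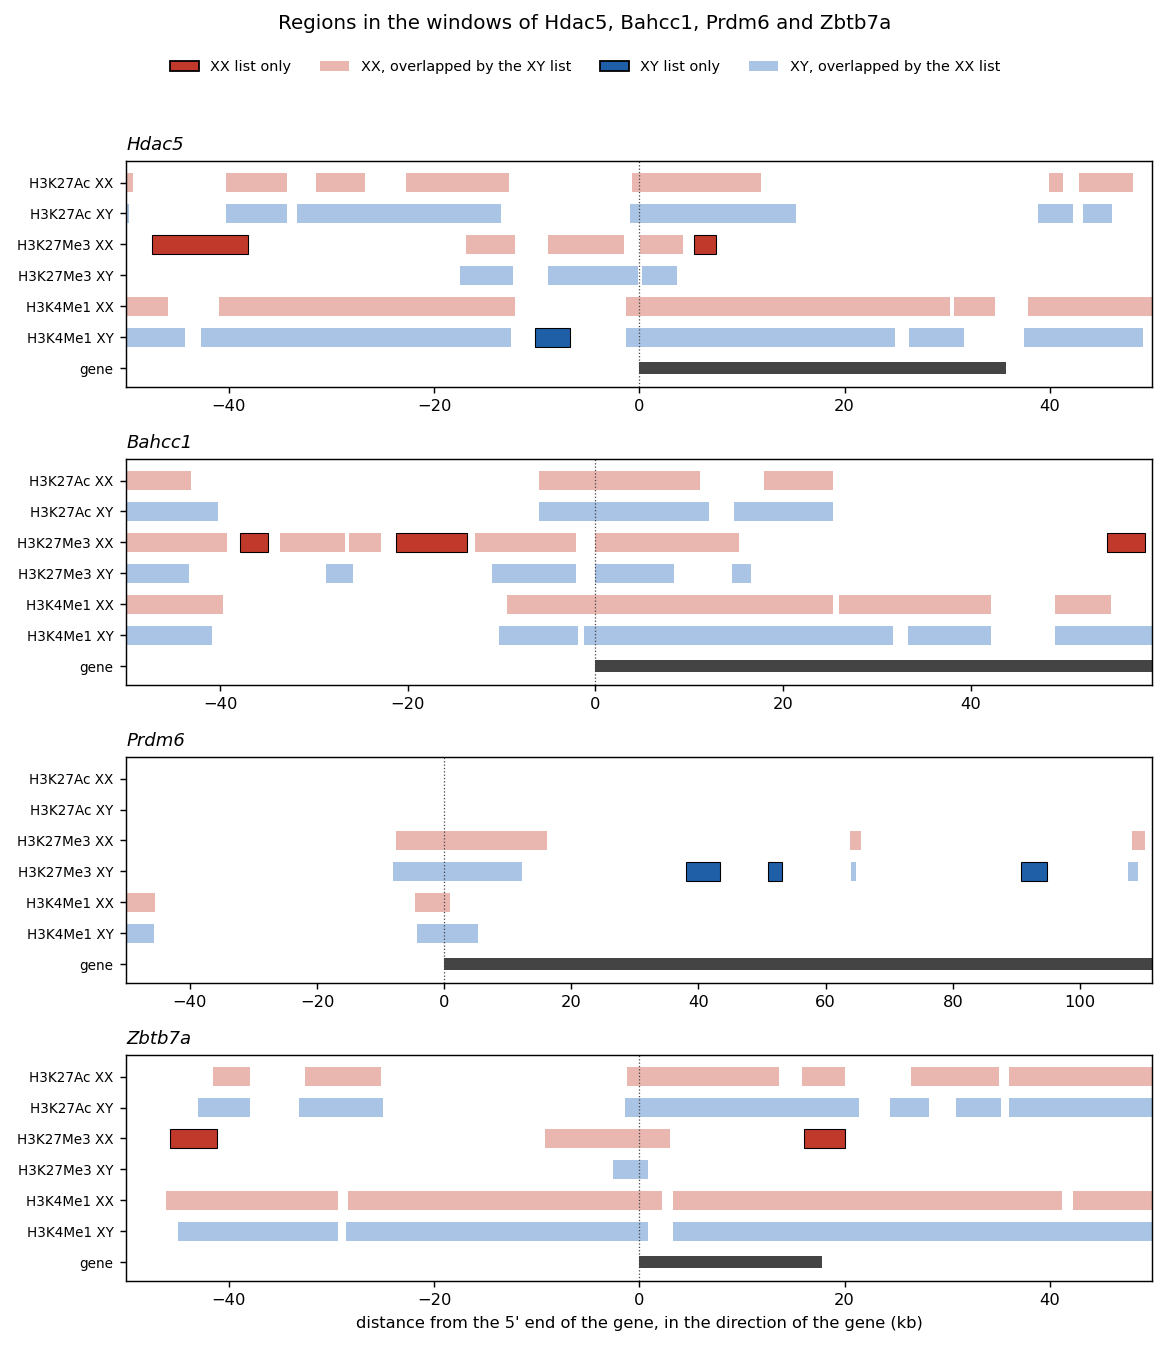
Regions of the 3 marks in the XX and XY lists over the windows of Hdac5, Bahcc1, Prdm6 and Zbtb7a, drawn with the same colours by distance from the 5′ end in kb. The distance scale differs between genes, since each axis extends to the end of a long gene. The H3K27Me3 region over the Zbtb7a start is 12.2 kb in the XX list and 3.40 kb in the XY list, and the dark bars of Prdm6 are all in the XY H3K27Me3 list.

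Where each list had a single region facing a single region of the other, edges could be compared on the 200 bp grid of the files. For H3K27Ac, 27 such pairs near the members had 31.5% of edges equal, against 20.2% over all autosomes, and the median edge difference was 400 bp in both. The XY region was the wider in 17 pairs, the XX region in 8, and 2 were equal, where the autosomal pairs divided into 8975 and 8760. For H3K27Me3, 11 pairs had 13.6% of edges equal (10.7% over autosomes) and a median difference of 600 bp (800 over autosomes), and the XX region was the wider in 8 and the XY region in 3, where the autosomal pairs divided into 4655 and 3369. For H3K4Me1, 28 pairs had 12.5% of edges equal (14.1% over autosomes) with a median of 600 bp in both. The XX region was the wider in 15 of these and the XY region in 12, where the autosomal pairs divided into 8617 and 11116. The largest differences were the 13.8 kb of Baz2b H3K4Me1 and the 6.6 kb of Zbtb7a H3K27Me3. In the Hdac5 window, the H3K27Ac region over the Asb16 start had the same start and end in both lists.

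The other marks over the list-only regions were also counted. Of 6 list-only H3K27Ac regions, 5 lay wholly under H3K4Me1 of their own list, and the Top2b region carried none, where 51.8% of such regions over the autosomes lay under it. Of 12 list-only H3K27Me3 regions, 3 lay wholly under H3K27Ac in both lists (in the windows of Arid1a, Hdac5 and Zbtb7a) and 7 were free of H3K27Ac in both, where the autosomal shares were 2.7% and 77.3%. Of 9 list-only H3K4Me1 regions, 8 carried no H3K27Ac in any list, the exception being that of Top2b, and over the autosomes 76.9% carried none. Base composition varied as well. The 3 XY-only H3K27Me3 regions of Prdm6 held 5, 4.55 and 9.5 CpG per kb. The autosomes held 8.51, and their XY-only H3K27Me3 regions had a median of 11.1. The XX-only H3K27Me3 regions at the ends of Zbtb7a and Bahcc1 held 32.5 and 29.0. Over all members the medians were 15.8 CpG per kb for 8 XX-only and 16.0 for 16 shared H3K27Me3 regions of the XX list. Over all autosomes they were 12.3 and 15.8. For H3K27Ac of the XX list the medians were 10.2 for 4 XX-only and 18.5 for 35 shared regions. The autosomal values were 12 and 16.1, a difference in the same direction.

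Relatives of the members were read in the same way, as 95 genes in 8 lists by family or complex, 94 of them autosomal. The backgrounds beside them are not matched for gene length unless stated. XX-only H3K27Ac regions lay near 49 of the 94 (52.1%, against 30.5% of autosomal protein-coding genes), XX-only H3K27Me3 regions near 53 (56.4%, against 42.6%) and XX-only H3K4Me1 regions near 58 (61.7%, against 46.7%). XY-only regions lay near 30 for H3K27Ac (31.9%, against 19.5%), 25 for H3K27Me3 (26.6%, against 22.4%) and 26 for H3K4Me1 (27.7%, against 25.2%). Among 24 SWI/SNF subunits, the relatives of Arid1a, 12 had an XX-only and 8 an XY-only H3K27Ac region (50% and 33.3%, against 30.5% and 19.5%), with Arid2, Arid1b and Smarca4 holding the most XX-only bases. Of 14 PRDM genes, the relatives of Prdm6, 10 had an XX-only and 7 an XY-only H3K27Me3 region (71.4% and 50%, against 42.6% and 22.4%), the latter widest in sum at Prdm16, Prdm14 and Prdm11. Of 10 BAH domain genes, 5 had an XX-only H3K27Me3 region (50%, against 42.6%), with 17.8 kb at Tnrc18, and 1, Rere, had an XY-only one (10%, against 22.4%). Of 13 ZBTB genes, 7 had an XX-only and 5 an XY-only H3K27Me3 region (53.8% and 38.5%, against 42.6% and 22.4%).

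For the relatives of Top2b, none of 7 topoisomerase and repair genes had an XY-only region of any mark, where the backgrounds were 19.5% for H3K27Ac, 22.4% for H3K27Me3 and 25.2% for H3K4Me1. An XX-only H3K4Me1 region lay near 6 of them (85.7%, against 46.7%), with 13.8 kb at Top3a. Of 7 autosomal BAZ and ISWI genes, all 7 had an XX-only H3K4Me1 region, with 17.8 kb at Baz1a, where 46.7% of all autosomal genes and 54.2% of those of 50 kb or more had one. Of 8 partners of Dot1l, 5 had an XX-only and 4 an XY-only H3K27Ac region (62.5% and 50%, against 30.5% and 19.5%), with 11 kb XX-only at Mllt10 and 10.0 kb XY-only at Ell. Of 12 deacetylase and corepressor genes, 8 had an XX-only and 3 an XY-only H3K27Me3 region (66.7% and 25%, against 42.6% and 22.4%).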

How the data were processed

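ChIP-seq reads were aligned by the authors to mm9 with Bowtie2, and Bedtools is named for the enrichment. Bowtie, deepTools and mm9 are what the submitters' notes name. The authors deposited 6 lists of regions, 1 per sex and mark, as chromosome, start and end on a 200 bp grid, with no count, score or signal. The region caller, its threshold, its use of IgG and input, and the way of combining lines were each not given in the sources used here. Read depth is unknown, so no interval is given.

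Starts were converted to 1-based positions. Gene models were GENCODE M1 on NCBIM37, which is mm9, and the 5′ end is that of the gene model. Regions with at least 1 bp of overlap were shared. Groups came from the labels. No test was made, since each list is unreplicated; counts stand beside the share of all autosomal protein-coding genes. Named were the 8 members with every list-only region of their windows, shared regions over a start or with large edge differences, genes nearest a list-only region, and from each related list up to 3 genes with the most list-only bases. The members and lists were chosen with earlier results of these data known. Python 3.11.15, NumPy 2.4.6 and Matplotlib 3.10.9 were used, scripts were tested on simulated lists, and overlap counts were checked against Bedtools 2.31.1, equal for 6 of 6 lists. The alternatives tried were other overlap rules, equal or shortened lists, other windows and merged regions.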

Additional observations from a re-analysis of the deposited data

How the results depend on the processing

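Each list is a single set for 1 sex and mark, and leaving out a replicate was not run. No paired analysis was possible because the lists combine the lines of a sex and carry no replicate. The lists give no depth. Of 111 recomputed values, 71 stayed within 1.5 times the reported value and 40 moved. Of 288 recomputed counts of single members, 55 moved. The XY-only H3K27Ac region of Arid1a was lost when gaps of up to 1 kb were allowed, and both its list-only H3K27Ac regions were lost in the widest 50% of each list.

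A reciprocal overlap of 50% raised the list-only regions of the members to 11 (XX) and 9 (XY) (H3K27Ac), 14 and 10 (H3K27Me3), and 17 and 13 (H3K4Me1), and the share of genes to 46.9% and 39.2% for H3K27Ac, 42.4% for XY H3K27Me3 and 57.3% for XY H3K4Me1. Counting regions up to 1 kb apart as shared moved 1 of the main values, leaving 1 XY-only H3K27Ac region. Equal list lengths also moved 1, leaving 4 XX-only H3K4Me1 regions. A recount in the widest 50% of each list gave 5 XX-only and 2 XY-only H3K27Ac regions. It gave 5 and 1 for H3K27Me3, and 3 and 1 for H3K4Me1. These were not all regions of the main count, since some were shared in the full lists. The 2 XY-only H3K27Ac regions, for example, lay in the Baz2b window, which had none in the full lists. The shares of genes were then 25.9% and 19.1% (H3K27Ac, XX and XY), 27.7% and 12.9% (H3K27Me3), and 34.6% and 19.8% (H3K4Me1).

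With the window cut to the gene body and 5 kb around the 5′ end, the members kept 3 XX-only and 1 XY-only H3K27Ac regions. For H3K27Me3 they kept 3 and 3, and for H3K4Me1 4 and 1. These regions lay near 3 and 1 of the 8 members (H3K27Ac, XX and XY), 3 and 1 (H3K27Me3), and 1 and 1 (H3K4Me1). The shares of genes fell to 12.5% and 8.09% (H3K27Ac, XX and XY), 15.7% and 7.7% (H3K27Me3), and 21.3% and 11.8% (H3K4Me1). For related genes with a list-only region, the counts that moved came to 19 (XY H3K27Ac), 25 and 12 (XX and XY H3K27Me3) and 35 (XX H3K4Me1). The covered bases became 160.4 and 162.8 kb (H3K27Ac), 82.6 and 73.3 kb (H3K27Me3), and 318.6 and 319.8 kb (H3K4Me1). Over the 5′ end itself, H3K27Me3 lay at 3 members in each list instead of 5. The excess of XX H3K27Me3 bases in the members' windows was therefore smaller in the narrower window, and the cause was not tested.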
